A study of Mus musculus with 6 samples.

Results

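The cytoplasmic ribosomal protein genes encode the proteins of the large and small subunits of the ribosomes that translate nuclear mRNAs. They were taken as the genes with a single array annotation symbol made of Rpl or Rps and a number, with an optional letter and further digits (as in Rpl37a, Rps4x and Rps3a1), together with Rpsa, Rplp0, Rplp1 and Rplp2. The rule leaves out the Rps6k kinases, pseudogenes, Rps27l and the mitochondrial ribosomal proteins, and it used no measured difference. It found 43 genes among the 18193 genes of the arrays, 22 of the large and 21 of the small subunit. Where several probe sets named a gene, the one with the brightest average over the 6 arrays represented it. The RefSeq gene table of the mouse assembly GRCm38.p6 holds 77 protein-coding genes of this pattern, of which 34, among them Rpl5, Rpl10 and Rplp1, were not members and were not analysed as single genes here.

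The RNA came from Ter119-positive cells of the mouse fetal liver at embryonic day 14.5, from 3 pools of STAT5 KO embryos and 3 pools of wild type embryos. The Ter119 antigen marks red cell precursors that are maturing, and STAT5A and STAT5B are transcription factors that act downstream of the erythropoietin receptor. Each pool combined 3 to 5 embryos that shared a genotype, and each was hybridised to an Affymetrix Mouse430_2 array, so replicates are separate pools of animals. The knockout allele, whether it removes both Stat5 genes, the strain and the sex of the embryos, and the purity of the isolated cells are not given in the sources used here.

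Ribosomal protein genes are expressed in all cells, and their mRNAs begin with a terminal oligopyrimidine tract (TOP), a cytosine followed by a run of pyrimidines, through which the kinase mTOR controls their translation. Because protein output is set largely at translation, mRNA levels such as those measured here do not give the amount of ribosomes made. Erythroid precursors depend on a high rate of translation to make globin, and in humans the loss of 1 copy of any of several ribosomal protein genes causes Diamond-Blackfan anaemia, in which red cell precursors fail.

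Values are log2 of the deposited linear signal, and a difference is the mean log2 signal of the knockout pools minus that of the wild type pools, with its standard error (SE) from limma. Per array, the median signal ranged between 175.4 and 215.8. Background was set at the signal that 95% of the values of 27 Bacillus subtilis control probe sets stayed under, 162.5 or 7.34 on the log2 scale, called the control level. All 4 probe sets of Stat5a and Stat5b read lower in every knockout pool than in every wild type pool, by -3.77 to -1.29, but the sources used here do not say where the deleted sequence lies against them. Of the erythroid markers, 11 of 14 were measured, and all 11 lay above the control level with a median of 14.56. Markers of hepatocytes, which a Ter119-positive preparation should lack, were bright as well, all 12 measured lying between 9.87 and 15.57. The number of arrays limits the precision, since a 2-sided exact permutation test of 3 against 3 cannot go below 0.1.

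Most ribosomal protein transcripts read slightly higher in the knockout pools. Of the 43 genes, 35 had a difference above 0 (81.4%, where 41.9% of all genes had one), and the median difference was 0.22, where that of all 18193 genes was -0.08. In 21 members every knockout pool lay above every wild type pool, 48.8% of them, where the same held for 7.02% of all genes. In 4 members, Rpl39, Rps2, Rpl41 and Rpl27a, every knockout pool lay below every wild type pool, where 9.85% of all genes did so. These shares, 7.02% higher and 9.85% lower, are the background for counts of genes without overlap on the 6 arrays as deposited, with 1 probe set per gene. Other settings have their own shares. The differences were small, from -0.54 to 0.91, and 6 members exceeded 1.5-fold upwards and 0 downwards, where 7.68% of all genes did so upwards and 15.8% downwards.

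No member passed the test. In limma's fit with no mean-variance trend, the adjusted p of the members lay between 0.402 and 0.945 over all 18193 genes, of which 0.044% were called. With the trend it lay between 0.201 and 0.945, where 0.242% of all genes were called higher and 0.198% lower. At an unadjusted p under 0.05 the fit with no trend held 5 members higher in knockout and 0 lower, beside 3.41% and 5.5% of all genes. With the trend it held 9 higher and 1 lower, beside 4.84% and 6.15%. The methods' t-test, which equals the submitters' criterion without its fold, held 11 higher and 3 lower at that level, beside 4.19% and 5.13% of all genes, and 0 after Benjamini-Hochberg adjustment. Because the genes of 1 pool share that pool, the count of members in 1 direction is not a count of independent observations. In these bulk samples, fewer cells of a type and less RNA per cell cannot be told apart.

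**Figure D1:**
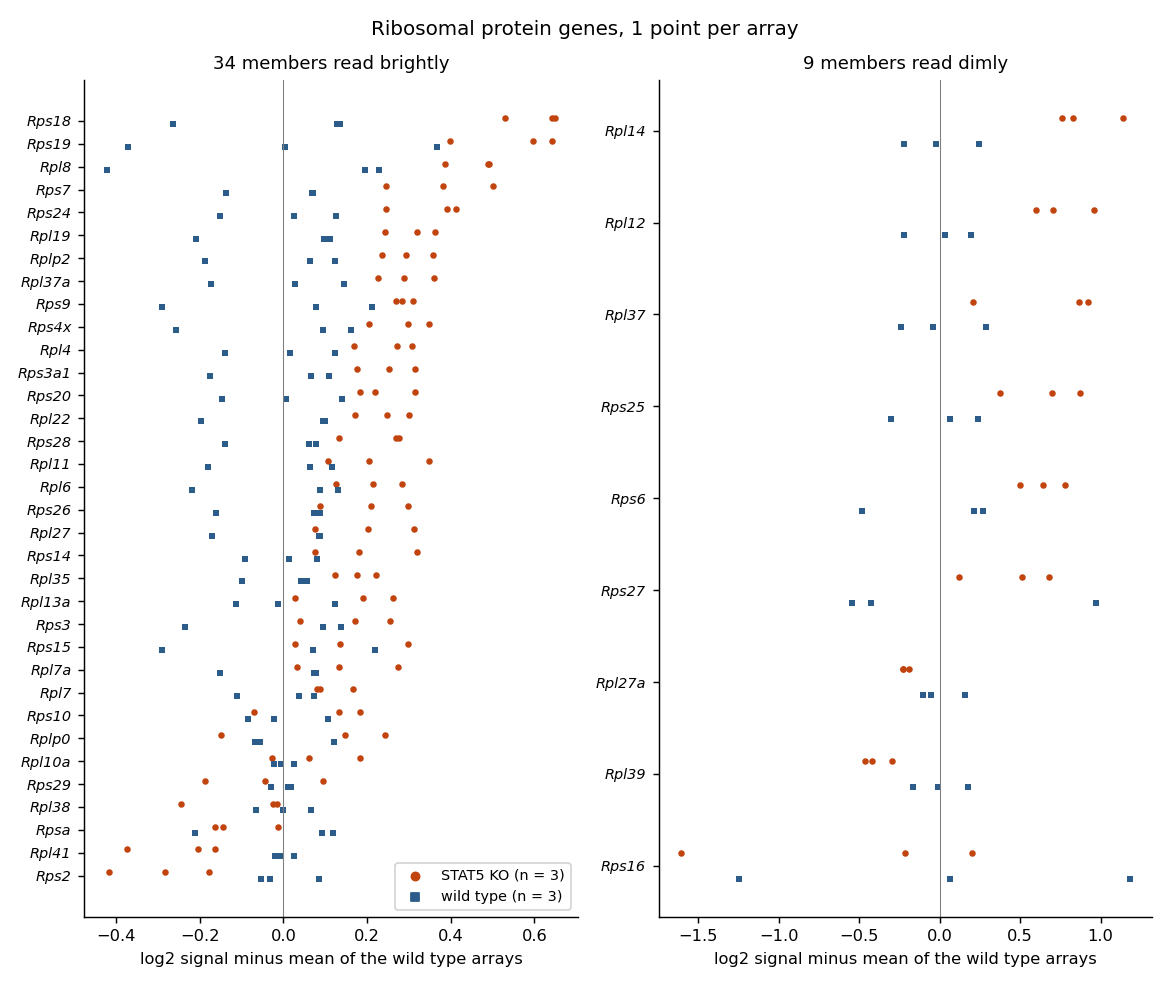
Log2 signal of each of the 43 ribosomal protein genes on each array, less the mean of the 3 wild type arrays of that gene, with knockout pools drawn above wild type pools in each row. Most knockout points lie above 0, and the differences between genotypes range from -0.54 to 0.91.

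Both subunits held members in each direction. Among the 21 small subunit members 17 had a difference above 0, with a median of 0.24, and in 11 the knockout pools lay above all wild type pools. Among the 22 large subunit members 18 had a difference above 0, with a median of 0.20, and in 10 the knockout pools lay above all wild type pools. The opposite separation occurred for 1 small subunit member (Rps2) and for 3 of the large subunit (Rpl39, Rpl41 and Rpl27a). The difference between subunits was not tested.

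The members fall into 34 bright genes, with a mean log2 signal of 13.54 or more, and 9 dim genes, with a mean of 10.55 or less, a split at 12 chosen after the values were seen. The bright genes had a median difference of 0.20, 29 of 34 above 0, with 17 higher and 2 lower without overlap. At an unadjusted p under 0.05 (limma, no trend) 1 bright and 4 dim genes were higher, beside 3.41% of all genes. More than 1.5-fold upwards lay 1 of the 34 bright and 5 of the 9 dim genes, beside 7.68% of all genes. Of 387 other genes with a log2 signal of at least 13, 27 were higher and 79 lower without overlap, and their median was -0.11, with 38.8% above 0. The 76 mitochondrial ribosomal protein genes, whose products serve a separate ribosome, had a median of -0.0049, with 37 above 0, 2 higher and 5 lower without overlap. No test was made of the gap between these gene sets, so these are descriptions of the 6 arrays.

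**Figure D2:**
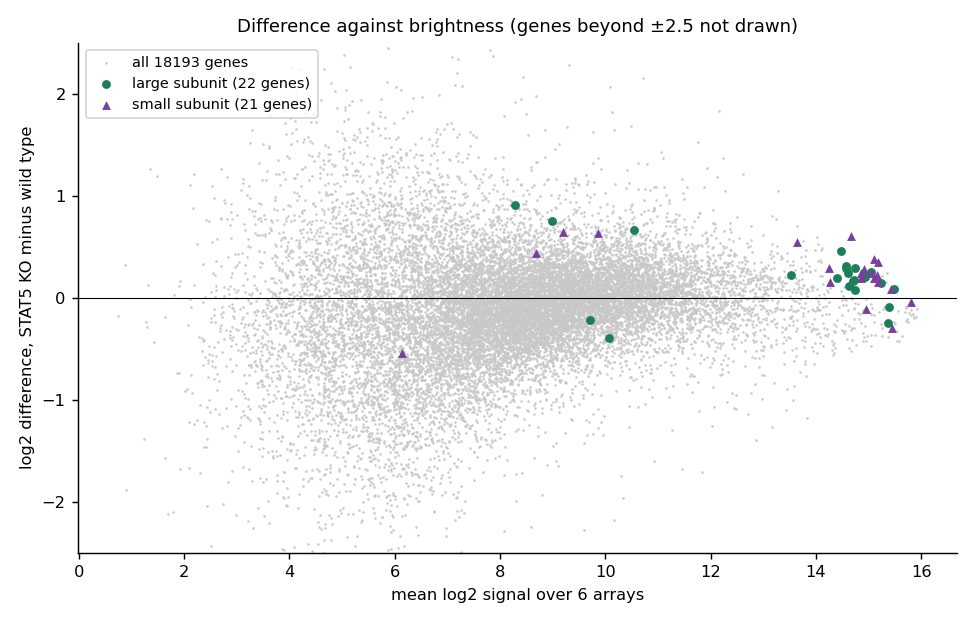
Difference between knockout and wild type pools on the log2 scale against mean log2 signal, for the 43 ribosomal protein genes and the other genes measured. The 34 bright members lie at 13.54 or above, mostly over the 0 line, with a median of 0.20, where other genes with a log2 signal of at least 13 have a median of -0.11.

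The size of the shift depended on wild type replicate 2. Measured as the median over the 34 bright members of the deviation from the wild type mean, knockout pools 1, 2 and 3 read 0.13, 0.27 and 0.22, and wild type pools 1, 2 and 3 read 0.08, -0.16 and 0.07. All 3 knockout medians thus lay above all 3 wild type medians, but wild type replicate 2 was the lowest of the 6 arrays in 28 of the 34 genes, and knockout replicate 1 the lowest in the other 6. Without wild type replicate 2 the median difference of all members was 0.14, where that of all genes was -0.05. In that comparison 22 of the 43 were higher without overlap and 5 lower, where 11.1% of all genes were higher and 14.6% lower. Leaving out that array moved 20 members by over 1.5 times, among them Rps19 to 0.36, Rpl8 to 0.24, Rps4x to 0.16, Rpl22 to 0.14, Rpl11 to 0.13 and Rps27 to 0.92, and turned Rps16 to 0.050.

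Wild type replicate 2 also had the highest summed signal of the 12 hepatocyte markers, 258755, beside 195468 and 151697 in the other wild type pools. The knockout pools summed to between 130496 and 144044, and 8 of the 12 hepatocyte markers were lower in them without overlap. Erythroid markers summed to between 251267 and 313861 in knockout and between 314348 and 320537 in wild type pools. Among them, Alas2 and Slc4a1 read 78.4% to 93.3% of the highest signal of their array. That highest signal was 54356, 71034 and 62212 in knockout pools 1, 2 and 3. In wild type pools 1, 2 and 3 it was 78744, 72934 and 62794. What these unequal tops do to the sums and to the brightest members was not tested. The 6 markers of immature progenitors are a list written with these results known. The members and the other gene lists were likewise chosen with earlier results of these data known. The progenitor markers summed to between 6905 and 8214 in knockout and between 3581 and 4186 in wild type pools. Of the 6, 4 were higher without overlap (Kit, Myb, Myc and Cd44, by 0.80 to 1.65), where 7.02% of all genes were. Gata2 (-0.03) and Cd34 (-0.15) overlapped, and both means of Cd34 lay under the control level. The part of these shifts in the ribosomal protein values was not tested.

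**Figure D3:**
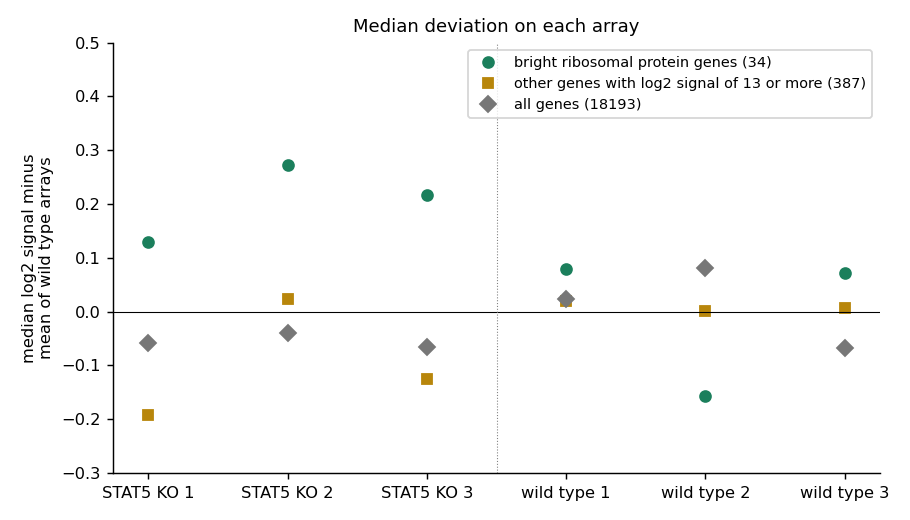
Median log2 deviation from the wild type mean on each array for the 34 bright members, the other genes with a log2 signal of at least 13 and all genes, knockout arrays left of wild type arrays. Bright ribosomal protein genes read 0.13 to 0.27 in the knockout pools and -0.16 to 0.08 in the wild type pools, with wild type replicate 2 lowest.

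Of the small subunit, Rps18, a protein of the subunit's head, gave the largest difference among bright members. Its signal was 15.01, 14.89 and 15.00 in knockout pools and 14.49, 14.10 and 14.50 in wild type pools, a difference of 0.61 (SE 0.19, adjusted p = 0.517 by limma, 0.201 with the trend). All knockout pools lay above all wild type pools, by 0.40 at the nearest. Its 2 other bright probe sets gave 0.65 and 0.65. Rps19, the gene most often mutated in Diamond-Blackfan anaemia, read 13.77, 13.97 and 14.02 in knockout pools and 13.38, 13.001 and 13.74 in wild type pools, a difference of 0.55 (SE 0.24). These groups did not overlap either, although the lowest knockout pool lay only 0.03 above the highest wild type pool.

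Rps7 and Rps24 are mutated in that anaemia too. Rps7 read 15.16, 15.30 and 15.42 in knockout and 14.98, 14.78 and 14.98 in wild type pools, a difference of 0.38 (SE 0.18). Rps24 read 15.25, 15.41 and 15.39 in knockout and 15.13, 14.85 and 15.03 in wild type pools, a difference of 0.35 (SE 0.17). Neither gene's groups overlapped. Rps14, whose loss accounts for the anaemia of the human 5q- syndrome, read 15.08, 15.32 and 15.19 in knockout and 15.08, 14.91 and 15.02 in wild type pools, a difference of 0.19, and the groups overlapped. Rps6, the substrate of the S6 kinases downstream of mTOR, read 10.18, 10.04 and 10.32 in knockout and 9.75, 9.81 and 9.06 in wild type pools, a difference of 0.64 (SE 0.26). The groups of Rps6 did not overlap, but the difference was 0.40 without wild type replicate 3, whose signal was the lowest. A second Rps6 probe set, under the control level, was lower in every knockout pool by -0.62, so that the mean of both gave 0.0078. Rps25, which some viral mRNAs need to start translation, read 9.25, 9.75 and 9.57 in knockout and 8.94, 9.12 and 8.57 in wild type pools. Its groups separated in the same way, with a difference of 0.65 (SE 0.24). Further small subunit genes higher in every knockout pool were Rps9 (0.29), Rps4x (0.28), Rps3a1 (0.25), Rps20 (0.24) and Rps28 (0.23), all bright. A second Rps4x probe set, under the control level, gave -0.81 with overlap, and the mean of both -0.26. Rps26, Rps3, Rps15 and Rps10 differed by 0.20, 0.16, 0.15 and 0.08 with overlapping groups. A second probe set of Rps15 gave 0.64 without overlap. The other probe sets of Rps3, both dim, gave 0.56 without overlap and 0.13 with overlap.

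Of the large subunit, Rpl14 and Rpl12 gave the largest differences of all members. Rpl14 read 8.97, 8.66 and 8.59 in knockout and 7.81, 7.61 and 8.08 in wild type pools, a difference of 0.91 or 1.88-fold (SE 0.21, adjusted p = 0.402 by limma, 0.237 with the trend). Rpl12, a protein at the base of the stalk, read 9.31, 9.56 and 9.20 in knockout and 8.64, 8.80 and 8.38 in wild type pools, a difference of 0.75 (SE 0.20). Neither gene's groups overlapped, and both signals are dim for a ribosomal protein transcript. Among bright genes the largest was Rpl8, a protein near the peptidyl transferase centre, with 14.74, 14.64 and 14.74 in knockout and 14.48, 13.83 and 14.45 in wild type pools, a difference of 0.45 (SE 0.23). Its groups did not overlap, and wild type replicate 2 stood lowest, as in most bright members. Rpl37 had the third largest difference of all members, 0.66 (SE 0.27), but with 11.14, 10.42 and 11.08 in knockout and 10.18, 9.98 and 10.51 in wild type pools its groups overlapped. Rpl19 (0.31), Rpl37a (0.29), Rpl4 (0.25), Rpl35 (0.17) and Rpl7 (0.11) were higher in every knockout pool. Rpl6, Rpl27, Rpl13a, Rpl7a and Rpl10a differed by 0.07 to 0.21 and Rpl38 by -0.09, with overlap. The other probe sets of Rpl13a gave 0.57, 0.54 and 0.49, each higher without overlap.

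The stalk, which brings elongation factors to the ribosome, was measured through Rplp2 and Rplp0. Rplp2 read 14.66, 14.72 and 14.78 in knockout and 14.49, 14.24 and 14.55 in wild type pools (0.30), without overlap. Rplp0, the stalk's anchor, read 15.30, 15.69 and 15.60 in knockout and 15.38, 15.57 and 15.39 in wild type pools (0.08), with overlap. Rpl11, which with Rpl5 and the 5S RNA can bind the p53 regulator Mdm2, read 13.77, 13.53 and 13.63 in knockout and 13.54, 13.25 and 13.49 in wild type pools (0.22), and the lowest knockout pool lay just under the highest wild type pool. Rpl22, which has roles in lymphocyte development, read 14.66, 14.73 and 14.79 in knockout and 14.58, 14.29 and 14.59 in wild type pools (0.24), without overlap.

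The 4 members that separated in the opposite direction were mixed in level. Rps2, at the entry of the mRNA channel, read 15.17, 15.40 and 15.30 in knockout and 15.55, 15.67 and 15.53 in wild type pools, a difference of -0.29 (SE 0.17). Rpl41, the smallest ribosomal protein, read 15.11, 15.32 and 15.28 in knockout and 15.51, 15.48 and 15.46 in wild type pools (-0.25, SE 0.17). In both, every knockout pool lay below every wild type pool. Rpl39, a protein of the exit tunnel, read 9.80, 9.96 and 9.84 in knockout and 10.25, 10.09 and 10.44 in wild type pools, a difference of -0.39 (SE 0.18). Rpl27a read 9.58, 9.62 and 9.58 in knockout and 9.97, 9.76 and 9.71 in wild type pools (-0.22, SE 0.17). Both come from dim probe sets. Rpsa, also known as the laminin receptor, read 14.84, 14.85 and 14.99 in knockout and 15.09, 14.79 and 15.12 in wild type pools, a difference of -0.11. Rps29 read 15.64, 15.92 and 15.79 in knockout and 15.80, 15.84 and 15.85 in wild type pools, a difference of -0.05. The groups of Rpsa, Rps29 and Rpl38 overlapped, and all 3 differences turn above 0 after median centring.

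Promoters are printed to show the sequence around the annotated start of some members, picked with their values known. Of the 43 members 38 matched an entry of the RefSeq promoter table (GRCm38.p6). A tract was defined as C followed by at least 4 pyrimidines, and the window ran 20 bases to either side of the start. The tract lay exactly at the annotated start in 8 of 38 members (21.1%, against 2.93% of the 14452 measured genes with a promoter and 3.01% of the 27025 genes of the table). It lay within the window in 31 (81.6%, against 54.8% and 53.3%). The sequences run from 30 bases before the start to 20 after it, 5′ to 3′ on the gene's strand, with the tract nearest the start in capitals. Capitals begin at the C nearest the start, and the run of pyrimidines can reach further upstream in lower case, as in Rpl14, Rps6 and Rps18. Such genes were counted as having the tract exactly at the start. Rpl12, Rpl14, Rps6, Rps18 and Rps7 read higher in knockout pools, and Rpl39, Rps2 and Rpl41 lower. Rpl41 has no tract in the window. Not printed are Rpl37 (0.66), Rps25 (0.65) and Rps19 (0.55), which differed by more than Rps7 (0.38), and Rpl27a (-0.22). Of those printed, Rpl14, Rps6 and Rps18 have the tract exactly at the start. The members not printed that have it there are Rps27 (0.44), Rplp2 (0.30), Rpl35 (0.17), Rps10 (0.08) and Rpl38 (-0.09).
Rpl12 (chr2:32961682-32961731, + strand): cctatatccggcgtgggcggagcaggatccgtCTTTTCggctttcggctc
Rpl14 (chr9:120571487-120571536, + strand): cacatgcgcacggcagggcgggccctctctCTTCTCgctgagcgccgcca
Rps6 (chr4:86857348-86857397, - strand): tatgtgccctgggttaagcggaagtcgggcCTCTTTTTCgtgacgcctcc
Rps18 (chr17:33955646-33955695, - strand): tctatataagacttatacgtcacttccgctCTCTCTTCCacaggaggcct
Rps7 (chr12:28635934-28635983, - strand): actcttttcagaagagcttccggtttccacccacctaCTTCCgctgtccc
Rpl39 (chrX:37085203-37085252, - strand): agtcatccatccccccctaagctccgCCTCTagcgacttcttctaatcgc
Rps2 (chr17:24720033-24720082, + strand): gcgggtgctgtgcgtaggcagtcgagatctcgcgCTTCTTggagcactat
Rpl41 (chr10:128549149-128549198, - strand): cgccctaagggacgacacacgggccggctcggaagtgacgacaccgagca

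Members with the tract at the annotated start had a median difference of 0.37 (n = 8), and those without it 0.21 (n = 30). The dim members Rpl14, Rps6 and Rps27 were among the 8. For the other measured genes the medians were -0.07 with the tract at the start (n = 416) and -0.08 without. With the tract anywhere in the window the members' median was 0.22 (n = 31), and without it there 0.23 (n = 7). These gaps were not tested. The palindrome TTCNNNGAA, the core letters of a STAT5 site and the same on both strands, was searched in the 250 bases before and 50 after the start, and was found in 3 of 38 members (7.89%, against 8.57% of the measured genes and 9.55% of the table). The members were Rpl35 (0.17, higher without overlap), Rpl4 (0.25, higher without overlap) and Rplp0 (0.08, overlapping), shown here with the palindrome in capitals between 10 bases on either side.
Rpl35 (chr2:39005239-39005267, - strand): aaggcaggacTTCCGGGAAgcggagggca
Rpl4 (chr9:64173153-64173181, + strand): ttacgaattaTTCCGCGAAaaagagtccc
Rplp0 (chr5:115559224-115559252, + strand): cagctagggtTTCGCAGAAagttgttttg

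The letters CGGAAG, a core that ETS factors bind, were found on either strand in 28 of 38 members (73.7%), against 27.1% of the measured genes and 18.8% of the table. Such matches describe the sequence of the window and do not show that a factor binds there.

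The brightest members lie near the top of the scale. At least 1 array read over 50% of its highest signal in 23 of the 34 bright genes, and Rps29 reached 94.1% of it, and what this does to the size of their differences was not tested. In 15 of the 17 members with several bright probe sets, the brightest of them gave the lowest difference, and in 12 to 15 of the 17 without 1 array. Over all probe sets above the control level, the brightest gave the lowest difference in 11 of the 18 members with several. Some gaps were small, as in Rpl35 with 0.174 at the brightest and 0.178 at another. Whether such counts differ from those of other genes was not tested. Rps10 gave 0.08 at its brightest probe set (15.42), 0.29, 0.29 and 0.72 at the next 3 and 1.41 at one with a mean of 11.92. Rps7 gave 0.38 and 0.73, and Rps24 0.35, 0.47, 0.72 and 0.43 over their bright probe sets. The second bright probe set of Rps9 gave 0.77 (SE 0.88) beside 0.29, but its groups overlapped and without wild type replicate 3 it gave -0.23. Of the 64 bright probe sets with a member's symbol alone, 58 were above 0, 37 higher and 3 lower without overlap, with a median of 0.24. Over all 45037 probe sets, 6.84% were higher and 8.95% lower without overlap. In 16 of the 17 members all bright probe sets gave 1 direction.

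**Figure D4:**
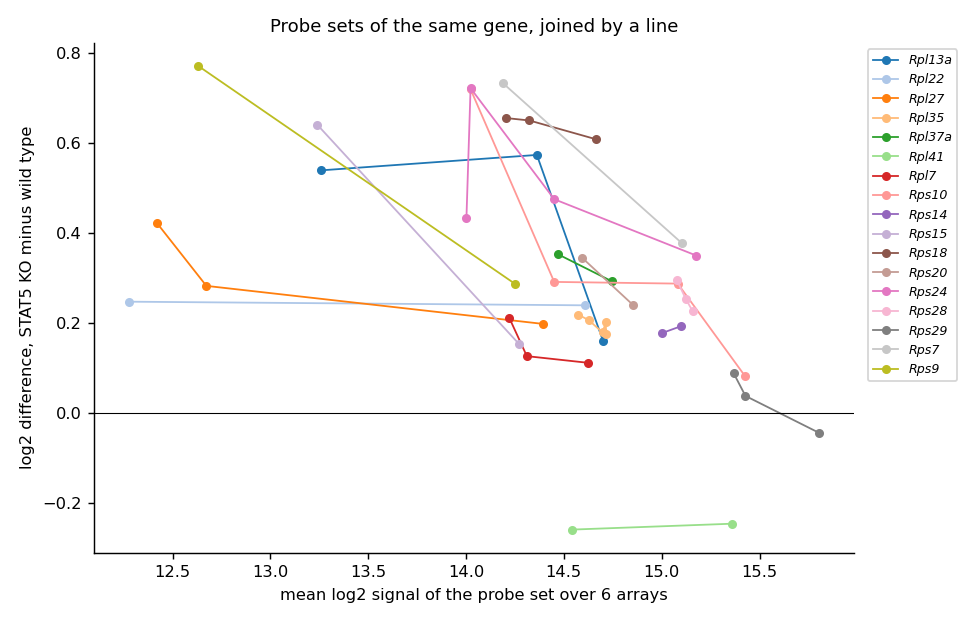
Difference between knockout and wild type pools against mean log2 signal for the bright probe sets (12 or more) of the 17 ribosomal protein genes that have several, points of a gene joined by a line. In 15 of the 17 the brightest probe set lies lowest, as for Rps7 with 0.38 at its brighter and 0.73 at its dimmer one. Over all probe sets above the control level, not all drawn, the brightest lies lowest in 11 of 18 members.

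Probe sets above the control level gave both directions in 6 members, Rpl35, Rpl37a, Rpl41, Rps20, Rps24 and Rps29. In Rpl37a the bright probe sets gave 0.29 and 0.35, and a dim one -0.74. In Rpl41 the 2 bright probe sets gave -0.25 and -0.26 and the 2 dim ones 0.59 and 0.26. For Rpl35, the 5 bright probe sets lay between 0.17 and 0.22, and the sixth, at 8.17, gave -0.19. Rps29 stayed within -0.05 and 0.09 over 3 bright probe sets.

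Each of the 9 dim members is also listed on bright probe sets that name several genes, whose signal cannot be assigned to 1 of them. On the brightest of these, the probe sets that name Rpl12, Rpl14, Rps25 and Rps27 were higher in all knockout pools, by 0.56, 0.34, 0.39 and 0.54. The 5 bright probe sets that name Rpl14 and other genes ranged from -1.59 to 0.51, however. Those naming Rpl39 and Rps16 gave 0.01 and 0.02, where the members' own probe sets gave -0.39 and -0.54. Those naming Rpl27a, Rpl37 and Rps6 gave 0.30, 0.17 and 0.15 with overlap. Of 110 probe sets with several symbols that include a ribosomal protein gene, 96 were above 0, with a median of 0.30. They ranged from -1.59 to 1.44. Without overlap, 56 of the 110 were higher and 4 lower, where 6.84% and 8.95% of all probe sets were. Limma with the trend called 2 of the 110, whose directions are not given here, and 0.155% of all probe sets. Rps16 itself, at 6.62, 4.81 and 6.20 in knockout and 5.17, 7.601 and 6.48 in wild type pools, had both means under the control level. Rps27 read 8.98, 8.58 and 9.15 in knockout and 7.92, 9.44 and 8.04 in wild type pools, with overlap.

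Genes mutated in Diamond-Blackfan anaemia were represented by 12 members of a list of 20. Of these 11 were above 0, 6 were higher and 0 lower without overlap (7.02% and 9.85% of all genes), none passed the test, and the median was 0.22, the same as that of all members. Rps29, at -0.05, was the exception.

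Ribosomal proteins with other names and paralogs were read beside the members. Fau, which encodes a ubiquitin-like protein fused to a small subunit protein, read 14.18, 14.32 and 14.44 in knockout and 13.86, 13.43 and 14.05 in wild type pools (0.53, SE 0.23), without overlap. Rps4l, a paralog of Rps4x, read 10.10, 10.69 and 10.84 in knockout and 8.79, 9.23 and 9.81 in wild type pools, a difference of 1.27 (SE 0.34, adjusted p = 0.448 by limma, 0.111 with the trend). Its knockout pools lay above all wild type pools, as did those of Rps4x, by a smaller difference of 0.28. Rpl22l1, Rps27l and Rpl7l1 differed by 0.35, 0.09 and 0.03 with overlapping groups, and Rpl39l and Rpl3l had both means under the control level.

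Other transcripts known to carry a TOP tract gave a median of 0.26 over the 18 of 19 measured, with 14 above 0, 8 higher and 1 lower without overlap (7.02% and 9.85% of all genes). Gas5, which hosts small nucleolar RNAs in its introns, read 12.65, 12.75 and 12.72 in knockout and 11.45, 11.50 and 11.62 in wild type pools. It was the 1 gene of this list that rose with the trend (1.18, SE 0.16, adjusted p = 0.0058 by limma, 0.155 without the trend), and with the trend its adjusted p lay between 0.0130 and 0.0414 without 1 array. The brightest Gas5 probe set not ending in _x_at, _s_at or _a_at gave a difference of 0.61. The elongation factor genes Eef1b2 and Eef2 differed by 0.56 and 0.47 and the initiation factor gene Eif3f by 0.80, all without overlap. Eef1d differed by -0.57, with every knockout pool below every wild type pool. The very bright Eef1a1 (-0.09), Pabpc1 (-0.19) and Tpt1 (-0.11) overlapped.

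Of 17 measured initiation factors of a list of 22, 13 were above 0, with a median of 0.10, 3 higher and 1 lower without overlap, where 7.02% and 9.85% of all genes were. Eif3m read 11.48, 11.54 and 11.61 in knockout and 10.85, 10.64 and 10.78 in wild type pools, a difference of 0.79 (SE 0.17) that passed with the trend (adjusted p = 0.0341 by limma) but not without it (0.355). It no longer passed in any of the 6 fits without 1 array (adjusted p from 0.0595 to 0.159, limma with the trend), with the replicate block (0.0645) and after median centring (0.0807), and the mean of all probe sets gave 0.45. Eif4g2, which supports cap-independent translation, differed by -0.33. Of 17 measured genes of mTOR, the S6 kinases and the TOP regulators (a list of 22), 11 were above 0, 2 higher and 1 lower without overlap (7.02% and 9.85% of all genes), 0 passed and the median was 0.04. Mtor differed by 0.05, Rictor, a subunit of the second mTOR complex, by 0.55, and Eif4ebp1, a repressor of cap-dependent translation, by 0.50. Larp1, which binds TOP tracts, differed by -0.37. Of 8 measured p53 response genes of a list of 10, 6 were above 0, 1 higher and 1 lower without overlap (7.02% and 9.85% of all genes). Of these 8, 0 passed and the median was 0.23. Bbc3, which encodes the pro-apoptotic protein PUMA, differed by 0.90 (SE 0.23) without overlap, Cdkn1a by 0.18 and Mdm2 by 0.33 with overlap. Eda2r was lower without overlap (-1.46), but both of its means lay under the control level.

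**Figure D5:**
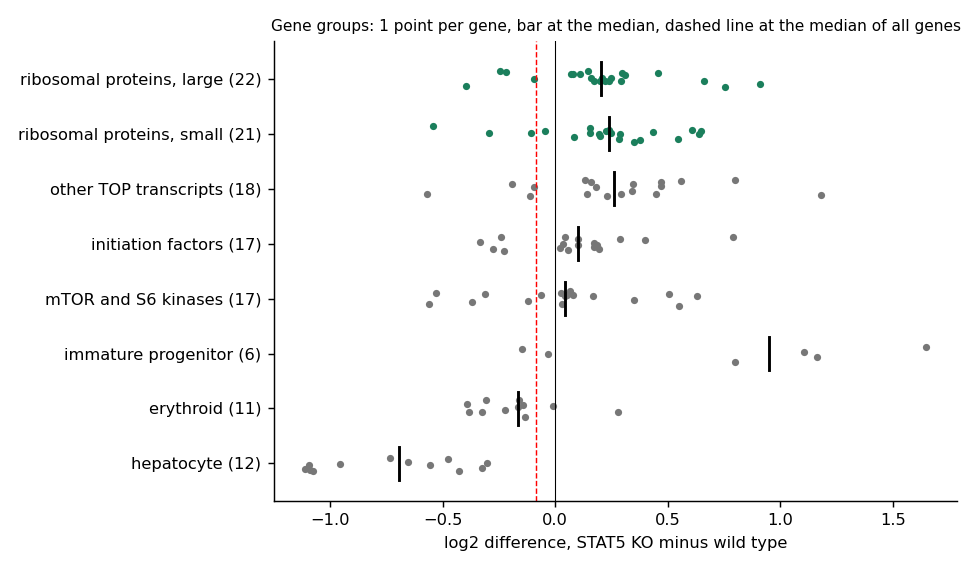
Log2 difference, knockout minus wild type, of each gene in the large and small subunit members and in related gene groups and cell markers, with a bar at each median and a dashed line at that of all genes, -0.08. The medians are 0.20 and 0.24 for the large and small subunit, 0.26 for other TOP transcripts, 0.10 for initiation factors, 0.04 for the mTOR group, 0.95 for progenitor, -0.16 for erythroid and -0.69 for hepatocyte markers.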

How the data were processed

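RNA of 6 pools was measured on Affymetrix Mouse430_2 arrays. The deposited values are linear intensities per probe set and array, made with RMA and Partek (versions not given) per the submitters' processing notes, although the linear scale and unequal array quantiles differ from standard RMA output. Each array's mean was 500 after 2% of values were left out at each end. Groups came from the sample titles. Log2 of the deposited intensity, with no pseudocount, was fitted with limma 3.58.1 in R 4.3.3 (lmFit, eBayes, without and with a mean-variance trend) over 18193 genes, knockout minus wild type, and p-values were adjusted by Benjamini-Hochberg (threshold 0.05). Of 45037 probe sets other than controls, 34945 had 1 symbol, 932 several and 9160 none in the platform annotation, and 34741 matched RefSeq by Entrez ID. The members and gene lists were chosen with earlier results of these data known.

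Genes named in the text were members past the threshold, the 6 largest differences in each direction among those without overlap (only 4 were lower), the 3 brightest and 3 dimmest members, a fixed set (Rps19, Rpl5, Rpl11, Rps14, Rps6, Rplp0, Rplp1, Rplp2, Rpsa, Rpl10, Rpl22), members whose probe sets gave both directions, all measured paralogs and Fau, and the leading genes of each other list. Any others were picked with their values known. Alternatives were the trend, the methods' t-test, quantile normalization, median centring, leaving out the 50% dimmest probe sets, array weights, adding 32, the mean of all probe sets, leaving out probe sets ending in _x_at, _s_at or _a_at, the replicate number as a block, and leaving out each array. The trend combined with scaling, the block and each left-out array was added after seeing the data. Same-numbered arrays deviated together by correlations of 0.02 to 0.04 over all genes, so the numbers were not taken as pairs. The limma fit was tested on simulated data.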

Additional observations from a re-analysis of the deposited data

How the results depend on the processing

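No member was called under any alternative. The median difference of the members ran from 0.14 to 0.25 without 1 array, was 0.22 with the replicate block, where 0 members were called and the lowest adjusted p was 0.548 (limma), and was 0.33 after median centring, which moves the median of all genes to 0.03 (-0.04 after quantile normalization, -0.08 as deposited). Over genes above the control level, same-numbered arrays correlated by 0.10 to 0.11, each best with its own number, which is a hint from the data and not part of the design. Without 1 array, 21 to 30 members were higher and 4 to 5 lower without overlap, where 10.2% to 12.1% and 14.6% to 22.0% of all genes were. With only probe sets not ending in _x_at, _s_at or _a_at, 22 members were measured. Of these 6 were higher and 2 lower without overlap, where 6.70% and 9.67% of all genes were. With the mean of all probe sets 20 members were higher and 2 lower, where 6.56% and 9.98% of all genes were. After median centring 21 were higher and 1 lower, where 9.02% and 6.63% of all genes were. Median centring moved 17 members by over 1.5 times, and the mean of all probe sets 11. Among members and other genes given with a value, these turned sign, and the cause was not tested. Without the _x_at, _s_at and _a_at probe sets Rpl35 gave -0.19, Rps20 -0.091, Rps24 -0.25, Rpl41 0.26, Eif4ebp1 -0.22, Mdm2 -1.19 and Pabpc1 0.11. With the mean of all probe sets Rps4x gave -0.26, Rpl37a -0.031, Rpl41 0.084, Rps29 0.027, Rpl7l1 -0.023, Eif4g2 0.29, Mdm2 -0.28, Mtor -0.12 and Cdkn1a -0.040. After median centring Rps29 gave 0.068, Rpsa 0.0064, Rpl38 0.019, Eef1a1 0.019 and Rpl3l 0.026, and after quantile normalization Rps29 gave 0.14, Rpl38 0.00040, Eef1a1 0.079, Tpt1 0.079, Rpl3l 0.11 and Rpl7l1 -0.00038. Adding 32 gave Rpl3l 0.0045, and array weights gave Rps16 0.020. Without 1 array Rpl3l ran from -0.87 to 0.43, Rpl7l1 from -0.097 to 0.10, Rplp0 from -0.00024 to 0.20, Rps16 from -1.17 to 0.050, Rps27l from -0.058 to 0.17 and Rps29 from -0.11 to 0.025. Cdkn1a gave -0.0043 without wild type replicate 2 and -0.051 without knockout replicate 3, Mtor -0.071 and -0.014 without knockout replicates 1 and 3, and Eef1a1 0.0044 and Tpt1 0.0050 without knockout replicate 1. Of the 43 members 1 lay under the control level, and 23 read over 50% of an array's highest signal on some array.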
